A study of Xenopus tropicalis with 26 samples.

Results

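The 8 genes described here encode machinery that carries a Nodal signal to the nucleus, and were followed through the blastula and gastrula of *Xenopus tropicalis*. They are the receptor genes *acvr2a*, *acvr2b* and *acvr1b*, the Smad genes *smad2*, *smad3* and *smad4.1*, the DNA-binding partner *foxh1*, and *trim33*, which encodes a ubiquitin ligase. They were taken by gene symbol from the abundance table, which lists 34192 genes, and all 8 are in it, each as 1 row. The filter on low values, an abundance above 0.4 in 6 consecutive samples of a condition, left 15019 genes for testing, among them all 8 of these.

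Whole embryos from high K+ medium were compared with untreated control embryos, to ask which transcripts change in medium that the paper uses to depolarize embryos. High K+ embryos were kept in 10 mM KCl and control embryos in the diluted Ringer's solution in which all had been raised. The labels name no mutation or injected reagent. The paper's general methods give a higher KCl concentration for high K+ medium, and no membrane potential is reported for these samples. Each condition was collected once, as 10 pooled embryos every 30 min from stage 8, which gave 13 high K+ and 13 control samples, the last at 6 h. Times below are hours after the first sample.

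Nodal ligands are secreted proteins of the TGF-beta family that induce mesoderm and endoderm in the vertebrate embryo. The ligand brings type II and type I receptor kinases together, the type I receptor phosphorylates Smad2 and Smad3, and these enter the nucleus with Smad4 and bind target genes with partners such as Foxh1. In the frog much of this machinery is supplied by the egg, and the ligands are transcribed by the embryo itself from the blastula onward.

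Each value is an abundance in the units of the added ERCC spike-in RNAs, derived from TPM and so expressed per transcript length. The authors fitted their correction per condition and not per sample, so spike-in levels still varied between samples. The spike-in level of a sample is the median log2 ratio of its spike-in RNAs to their means over all samples. It was -0.27 to 0.62 in high K+ and -0.62 to 0.37 in control samples. Levels of different genes can be set side by side as far as the authors' correction for dinucleotide content holds for each gene. These values carry no read numbers, so depth is unknown here and counting intervals are left out. With 1 course per condition, an SD taken over time points measures how a difference varied along the course, not how replicates vary. RNA was taken from whole embryos, where fewer cells that express a gene and less RNA per cell cannot be told apart. Over all tested genes the mean log2 difference, log2(high K+ + 1) minus log2(control + 1) averaged over 13 time points, had a median of 0.08. This median over genes was between -0.38 at 4.5 h and 0.48 at 1.5 h at single time points, and it became -0.01 when the samples of each time point were scaled to a median ratio of 1 and -0.02 when each sample was scaled to its spike-in RNAs. Marker genes of ectoderm, neural tissue, mesoderm, endoderm and organizer were present in both conditions, with *sox3*, *sox17a*, *vegt* and *chrd* called higher and *grhl3*, *sox2* and *myod1* called lower in high K+ by the rule given in the next paragraph, and the summed abundance of *ins*, *hba1* and *ckm*, genes of adult tissues, was at most 0.72 in high K+ and 0.94 in control samples.

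Of the 8 genes, 5 were called higher in high K+ embryos, 1 was called lower and 2 were not called. A gene was called where Gaussian processes fitted to the conditions separately gave a higher log-likelihood than 1 shared process, so a log-likelihood ratio above 0 is a call, with no p-value attached. By this rule 29.6% of all tested genes were called higher and 9.25% lower. The genes called higher were *foxh1*, *acvr2a*, *smad4.1*, *acvr1b* and *acvr2b*, *trim33* was called lower, and *smad2* and *smad3* were not called. The median of the mean log2 differences was 0.25 over the 8 genes and 0.08 over all tested genes.

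**Figure D1:**
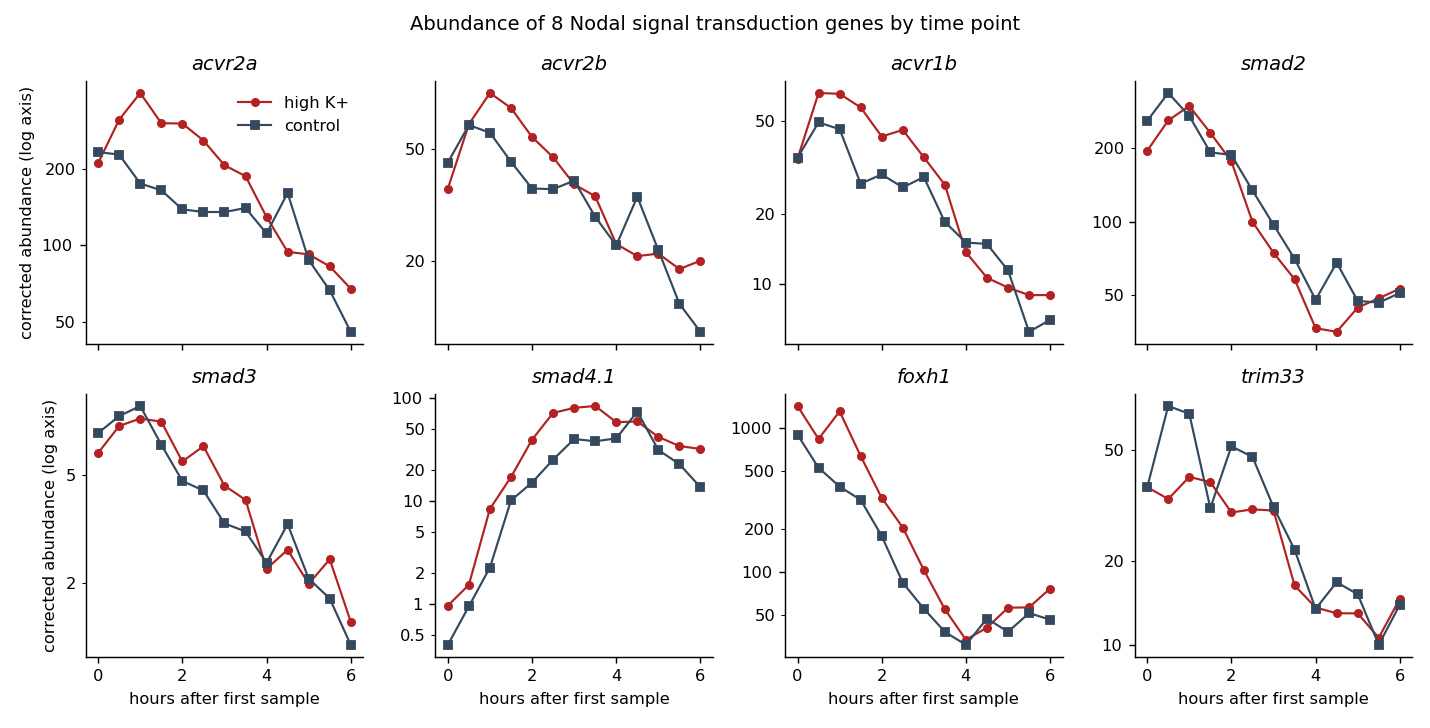
Corrected abundance (log axis) against hours after the first sample for each of the 8 genes, with 1 point per sample of 10 embryos, high K+ as red circles and control as dark squares. *foxh1* is highest at 0 h, *smad4.1* starts at 0.97 in high K+ and 0.40 in control and climbs, and the control sample of 4.5 h stands above both its neighbours in time for every gene but *acvr1b*.

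The type II receptor gene *acvr2a* was the most abundant of the receptor genes and the one with the clearest difference. Its abundance in high K+ samples was 398 at 1 h, 301 at 2 h, 207 at 3 h and 67.5 at 6 h. In control samples it was 175 at 1 h, 138 at 2 h, 135 at 3 h and 45.7 at 6 h. The highest high K+ sample was that of 1 h, whereas the control course began at its highest value, 233 at 0 h. High K+ was above control at 11 of 13 time points, all but 0 and 4.5 h. The log2 difference was 0.45 ± 0.54 (mean ± SD over time points) with a log-likelihood ratio of 7.60. It was largest at 1 h, a log2 difference of 1.18, or a 2.26-fold higher abundance plus 1. At 1 h the spike-in level was 0.05 in high K+ and -0.62 in control, so the spike-in scaling makes this difference smaller.

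The second type II receptor gene, *acvr2b*, had lower levels and a smaller difference. Its lowest, median and highest abundances were 18.8, 36.2 and 79.1 in high K+ samples, against 11.3, 36.1 and 60.9 in control samples. The ranges overlap, and the 3 high K+ samples of 0.5, 1 and 1.5 h lay above every control sample. The mean log2 difference was 0.19 ± 0.41 with a log-likelihood ratio of 1.90, and high K+ was above control at 9 of 13 time points. This call was lost when the time points at 0, 1, 1.5 or 2 h were left out one at a time, with a lowest ratio of -0.97. A limma fit over all 13 time points with the time point as a block did not call *acvr2b* either (adjusted p = 0.196). The abundance of *acvr2a* relative to *acvr2b* in the same sample, a quantity that scaling between samples does not touch, was 3.35 to 5.82 in high K+ samples and 3.06 to 5.19 in control samples. It was higher in high K+ at every time point up to 4 h and at 10 of 13 in all.

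The type I receptor gene *acvr1b*, which encodes the kinase that phosphorylates Smad2 and Smad3, had its highest value at 0.5 h in both conditions. Its abundance was 34.4 at 0 h and 65.9 at 0.5 h in high K+, against 34.8 at 0 h and 49.3 at 0.5 h in control. At 1.5 h it was 57.1 in high K+ and 26.9 in control, and at 6 h 8.97 in high K+ and 7.03 in control. The conditions began at nearly the same level, stood furthest apart at 1.5 h and differed in either direction from 4 h on. The mean log2 difference was 0.31 ± 0.42 with a log-likelihood ratio of 2.04, and high K+ was above control at 9 of 13 time points. Without the time point at 1.5 h, the one at which the median of all genes was also highest, the ratio was -1.17 and *acvr1b* was not called.

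The receptor-activated Smad genes *smad2* and *smad3* were not called. Abundances of *smad2* had a lowest value of 35.2, a median of 74.4 and a highest value of 299 in high K+ samples, against 46.4, 97.0 and 338 in control samples. High K+ was below control at 9 of 13 time points, the mean log2 difference was -0.22 ± 0.32 and the log-likelihood ratio was -3.46. Relative to the median of all tested genes at the same time point, *smad2* was lower in high K+ at 12 of 13. The high K+ values of *smad2* lay below control from 2 to 5 h and within 0.06 log2 units of it at 5.5 and 6 h.

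*smad3* was the least abundant of the 8 genes by its mean over the course in both conditions. Its lowest, median and highest abundances were 1.44, 4.56 and 8.05 in high K+ samples, against 1.18, 3.31 and 8.96 in control samples. High K+ was above control at 7 of 13 time points, the mean log2 difference was 0.10 ± 0.24 and the log-likelihood ratio was -4.94. The abundance of *smad2* relative to *smad3* within a sample had a median of 22.4 in high K+ and 29.8 in control samples, and it was lower in high K+ at 12 of 13 time points. *smad2* and *smad3* are similar in sequence, so reads shared between them are assigned with uncertainty.

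*smad4.1*, which encodes the Smad shared by the Nodal and BMP branches, was the only one of the 8 genes that increased over the course. It was listed at 0.97 in the first high K+ sample and at 0.40 in the first control sample. Its abundance in high K+ was 39.4 at 2 h, 80.3 at 3 h, 83.6 at 3.5 h and 32.0 at 6 h. In control embryos it was 15.1 at 2 h, 40.0 at 3 h, 38.0 at 3.5 h and 13.6 at 6 h. High K+ samples were above control at 12 of 13 time points and below only at 4.5 h, where the control sample reached its highest value of 73.8 and high K+ was at 59.2. The mean log2 difference was 0.80 ± 0.53, the largest among the 8 genes, and larger than that of 97.3% of all tested genes. This depends on the value of 1 added before the logarithm, since *smad4.1* starts near 0. With 0.1 added the difference was 0.91, and with 10 added it was 0.53, below the 0.64 of *foxh1*. The log-likelihood ratio was 6.52, and 13.6 without the 4.5 h time point.

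A second Smad4 gene, *smad4.2*, similar enough in sequence that reads may be shared with *smad4.1*, ran the other way in both conditions. Its abundance was 52.2 at 0 h and 2.89 at 6 h in high K+, against 57.5 at 0 h and 4.15 at 6 h in control. Its log-likelihood ratio was -2.04, so it was not called, and high K+ was above control at 7 of 13 time points. The share of *smad4.1* in the summed abundance of both genes was 1.82% at 0 h, 63.6% at 2 h and 91.7% at 6 h in high K+ embryos. In control embryos the share was 0.695% at 0 h, 52.1% at 2 h and 76.7% at 6 h. This share, which scaling between samples does not touch, was higher in high K+ at all 13 time points. The courses show the handover from one gene to the other at about 2 h in both conditions. The table values were corrected for dinucleotide content separately in each condition. A difference in that correction and a difference between the conditions therefore cannot be told apart for such ratios. The same holds for every comparison of high K+ with control given here.

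**Figure D2:**
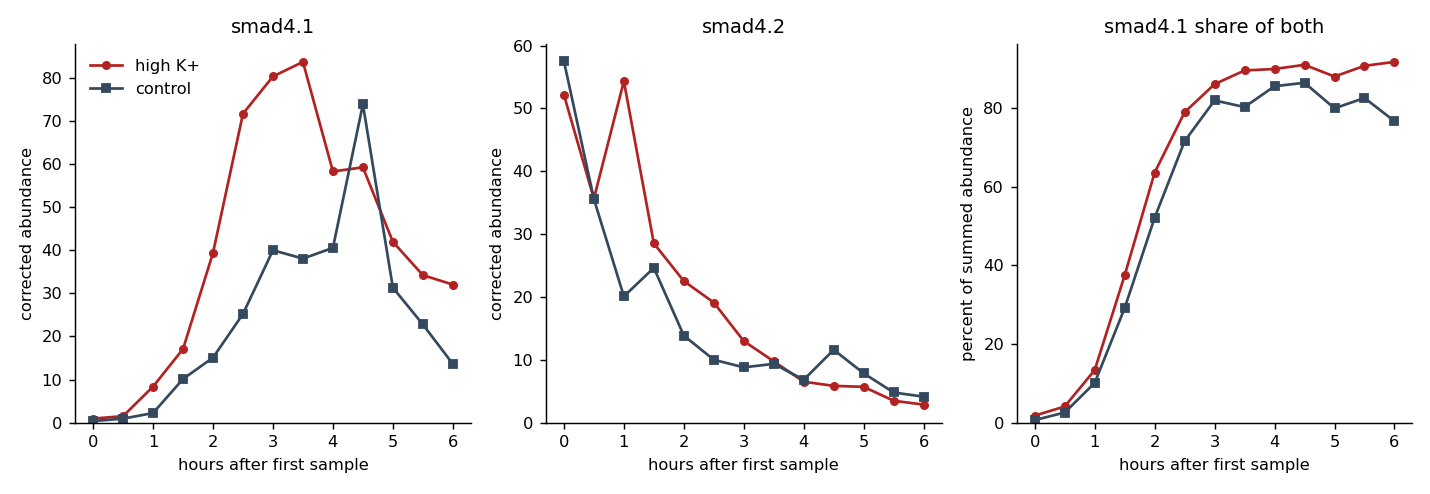
Left and middle, corrected abundance of *smad4.1* and *smad4.2* against hours after the first sample. Right, *smad4.1* as a percent of the summed abundance of both genes. High K+ (red circles) is above control (dark squares) in the right panel at all 13 time points, with 91.7% against 76.7% at 6 h.

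*foxh1* encodes the forkhead protein that brings activated Smad2 and Smad4 to their sites in the DNA, and its RNA is stored in the egg. It was the most abundant of the 8 genes at the start. Its abundance in high K+ was 1423 at 0 h, 840 at 0.5 h and 1306 at 1 h. It was then 638 at 1.5 h, 204 at 2.5 h and 76.7 at 6 h. In control embryos it was 898 at 0 h, 530 at 0.5 h and 392 at 1 h. Control values were then 317 at 1.5 h, 84.1 at 2.5 h and 46.5 at 6 h. The high K+ course thus rose again from 0.5 to 1 h, while control fell. From 1 h both courses fell steeply to their lowest points at 4 h, 33.8 in high K+ and 31.1 in control. Both were somewhat higher at 6 h than at 4 h. High K+ samples were above control at 12 of 13 time points, all but 4.5 h.

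The log2 difference of *foxh1* was widest at 1 h, at 1.73, or 3.33-fold. At 1 h the spike-in level was 0.05 in high K+ and -0.62 in control, so the spike-in scaling makes this difference smaller. The mean log2 difference of *foxh1* was 1.04 in the first 6 time points, against 0.38 in the last 7. In the values as deposited the difference was already present in the first sample, at a log2 value of 0.66. The spike-in level at 0 h was higher in high K+ (0.62) than in control (0.11), so the spike-in scaling makes this difference smaller. Over the course the mean log2 difference of *foxh1* was 0.68 ± 0.51. The log-likelihood ratio was 8.10, the highest of the 8 genes in the main fit. This rank did not hold in every setting. With a log2 transform the ratio was 5.70, below the 8.16 of *acvr2a*, and under the spike-in scaling it was 3.16, below the 4.85 of *trim33*. The time after which the course stayed below 50% of its maximum was 1.45 h for high K+ and 0.79 h for control. Without the 0 h time point these times were 1.49 h for high K+ and 1.69 h for control, so their order rests on the first samples. The abundance of *foxh1* relative to *smad2* within a sample was higher in high K+ at all 13 time points, with a median of 1.45 in high K+ and 0.92 in control samples. For other RNA stored in the egg, 3 genes were listed, *gdf1*, *mos* and *zp4*. Stored RNA as a whole was not assessed. All 3 were called higher, as were 29.6% of all tested genes, and the call of *zp4* was weak (ratio 0.745). Their summed abundance was 89.8 to 573 in high K+ samples and 77.1 to 387 in control samples. The high K+ sum exceeded the control sum in 10 of the 13 sample pairs. The part of stored RNA in the *foxh1* difference was not tested. Of the endoderm markers *sox17a* and *vegt*, both were called higher, with a summed abundance of 260 to 1722 in high K+ and 188 to 718 in control samples. Their part in it was likewise not tested.

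*trim33* encodes a ubiquitin ligase for Smad4, known in the frog as Ectodermin, which limits Nodal and BMP responses in the ectoderm. It was the only one of the 8 genes called lower in high K+. Its abundance in high K+ was 33.3 at 0.5 h, 39.9 at 1 h and 29.8 at 2 h, against 71.6 at 0.5 h, 67.2 at 1 h and 51.4 at 2 h in control. The conditions were level at 0 h, with 36.7 in high K+ and 36.6 in control, and again from 4 h on, apart from 4.5 and 5 h, when control was slightly higher. The early peak of the control course was absent from the high K+ course. The mean log2 difference was -0.29 ± 0.41 with a log-likelihood ratio of 0.74, and high K+ was below control at 8 of 13 time points. The call is weak, since leaving out the time points at 0.5, 1, 2 or 2.5 h one at a time removed it, with a lowest ratio of -1.93. In the limma fit over 13 time points with the block, *trim33* was not called (adjusted p = 0.051). Scaling of the samples made it stronger, with a ratio of 4.46 under the median ratio and 4.85 under the spike-in scaling.

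**Figure D3:**
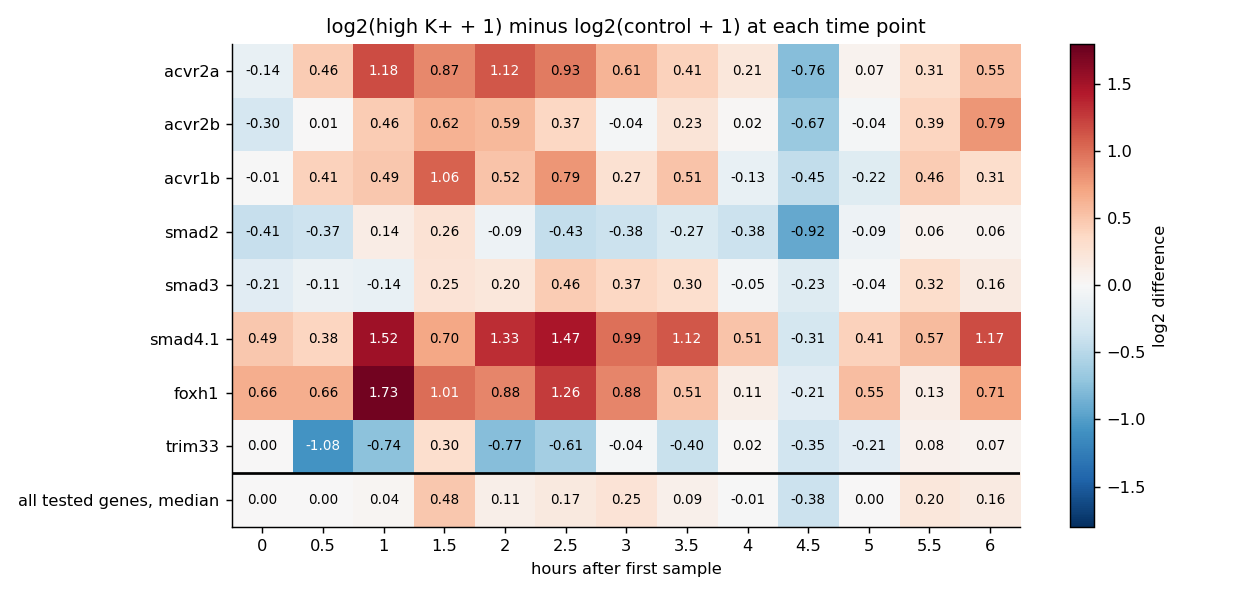
Log2 difference, high K+ minus control, for each of the 8 genes at each of 13 time points, with the median over 15019 tested genes in the bottom row. Red is higher and blue lower in high K+. All 8 genes are higher at 1.5 h and lower at 4.5 h, the time points at which the median over all genes is 0.48 and -0.38.

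Single time points moved many genes together. All 8 genes were higher in high K+ at 1.5, 5.5 and 6 h, and all 8 were lower at 4.5 h. Less the median of all tested genes at the same time point, *smad4.1* was higher in high K+ at all 13 time points, *foxh1* at 12 and *acvr2a* at 11. The same subtraction left *acvr1b* and *acvr2b* higher at 9 of 13 each, *smad3* at 6, *trim33* at 3 and *smad2* at 1. At 4.5 h the abundances of *acvr2a* were 94.2 in high K+ and 161 in control, where the control samples at 4 and 5 h had 111 and 87.6. The control sample of 4.5 h therefore stood above both its neighbours in time.

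To place the differences in time, the courses were cut into 4 windows of 3 time points, leaving out 0 h, and fitted with limma on log2(abundance + 1), with Benjamini-Hochberg adjustment over all tested genes and a threshold of 0.05. Successive time points of 1 course stand in for replicates here and are not independent, so the p-values describe the spread between neighbouring time points. In the window of 0.5 to 1.5 h, 1 of the 8 genes was called higher and 0 lower, while 12.2% of all tested genes were higher and 0.899% lower. That gene was *acvr2a*, with a mean abundance of 337 in high K+ and 189 in control and a log2 difference of 0.84 ± 0.25 (SE; limma adjusted p = 0.034). In the window of 2 to 3 h, *acvr2a* was again the only one called, with 255 in high K+ and 136 in control and a log2 difference of 0.88 ± 0.25 (limma adjusted p = 0.019), beside 15.7% of all genes higher and 1.7% lower. Over 19 other settings the adjusted p of these differences was 0.017 to 0.514 and 0.012 to 0.274, and both calls were lost under either scaling of the samples. The early call was kept in 8 of 12 fits that left out 1 time point and the later one in 10 of 12.

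*foxh1* and *smad4.1* had larger differences than *acvr2a* in the early windows, with larger errors, and were not called. *foxh1* averaged 928 in high K+ and 413 in control at 0.5 to 1.5 h, a log2 difference of 1.14 ± 0.39 (limma adjusted p = 0.061). *smad4.1* averaged 63.7 in high K+ and 26.8 in control at 2 to 3 h, a log2 difference of 1.26 ± 0.60 (limma adjusted p = 0.16). High K+ and control samples carry the same time in the labels, and with the time point as a block both of these were called. With the block, limma called 4 of the 8 genes higher at 0.5 to 1.5 h, *foxh1* (adjusted p = 0.011), *acvr2a* (0.024), *smad4.1* (0.039) and *acvr1b* (0.049), beside 16.6% of all tested genes. At 2 to 3 h it called 3, *smad4.1* (adjusted p = 0.0066), *foxh1* (0.0068) and *acvr2a* (0.014), beside 21.1% of all tested genes. Over 19 settings other than the main fit, the limma adjusted p at 0.5 to 1.5 h was 0.011 to 0.449 for *foxh1*. It was 0.039 to 0.824 for *smad4.1* and 0.042 to 0.73 for *acvr1b*. At 2 to 3 h it was 0.0068 to 0.372 for *foxh1* and 0.0066 to 0.462 for *smad4.1*. These settings include the fit with the block, and the others had no block, so the block calls were not repeated under other settings.

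In the later windows 0 of the 8 genes were called in either direction, with or without the block. At 3.5 to 4.5 h, 0.14% of all tested genes were higher and 0.479% lower, and at 5 to 6 h, 0.886% were higher and 0.186% lower. *acvr2a* then averaged 137 in both conditions at 3.5 to 4.5 h, and 80.8 in high K+ against 66.6 in control at 5 to 6 h. *foxh1* averaged 43.2 in high K+ and 38.9 in control at 3.5 to 4.5 h, and 63.3 in high K+ against 45.5 in control at 5 to 6 h. Whether the difference between conditions itself changed from the first to the last window was tested as an interaction in the same limma fit, and 0 of the 8 genes passed. The smallest adjusted p among the 8 was 0.872 without and 0.55 with the block. Without the block 0 of the 8 were under 0.05 before adjustment, where 5.73% of all tested genes were, and with it 1 was, *foxh1*, where 9.04% of all tested genes were. So the larger early differences are a description, and a change over time was not shown.

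**Figure D4:**
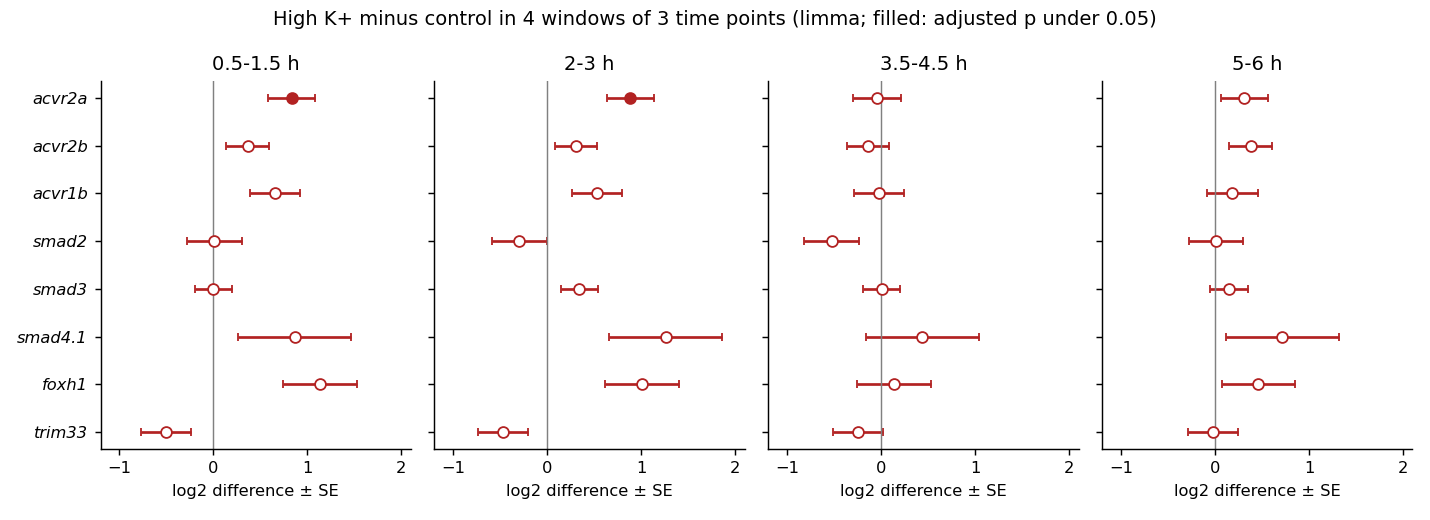
Log2 difference, high K+ minus control, with its standard error from limma (no block) in 4 windows of 3 time points each. Filled circles mark an adjusted p under 0.05, which only *acvr2a* reached, at 0.5 to 1.5 h (0.84) and at 2 to 3 h (0.88).

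Over time, 7 of the 8 genes fell and 1 rose in each condition. The last window, 5 to 6 h, was compared with the first, 0.5 to 1.5 h, within each condition. By this comparison 60.7% of all tested genes fell and 18.5% rose in high K+, and 58.8% fell and 19.7% rose in control. The decline was steepest for *foxh1*, with a log2 change of -3.81 ± 0.39 in high K+ (SE; limma adjusted p = 4.53e-08) and -3.13 ± 0.39 in control (limma adjusted p = 5.16e-07). *smad2* had the same log2 change of -2.41 in both conditions, and *acvr2b* had -1.75 in high K+ and -1.76 in control. *acvr1b* changed by -2.64 in high K+ and -2.17 in control, *acvr2a* by -2.05 in high K+ and -1.53 in control, and *trim33* by -1.48 in high K+ and -1.97 in control. *smad3* changed by -1.59 in high K+ and -1.74 in control. *smad4.1* rose by 2.28 ± 0.60 in high K+ (limma adjusted p = 0.00176) and by 2.44 ± 0.60 in control (limma adjusted p = 0.00103).

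The calls depended on how the samples were scaled to each other. *foxh1* and *smad4.1* were called higher under all 3 scalings, with log-likelihood ratios of 8.10, 4.05 and 3.16 for *foxh1* and 6.52, 3.40 and 4.103 for *smad4.1* as deposited, under the median ratio and under the spike-in scaling. *acvr2a* was called as deposited and under the median ratio (3.82) and was not called under the spike-in scaling (-1.82). Of the 3 scalings, *acvr1b* and *acvr2b* were called only with the values as deposited. *trim33* was called lower under all 3. The mean log2 differences kept their sign for all but *smad3*, which was at 0.01 under the median ratio and -0.03 under the spike-in scaling.

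**Figure D5:**
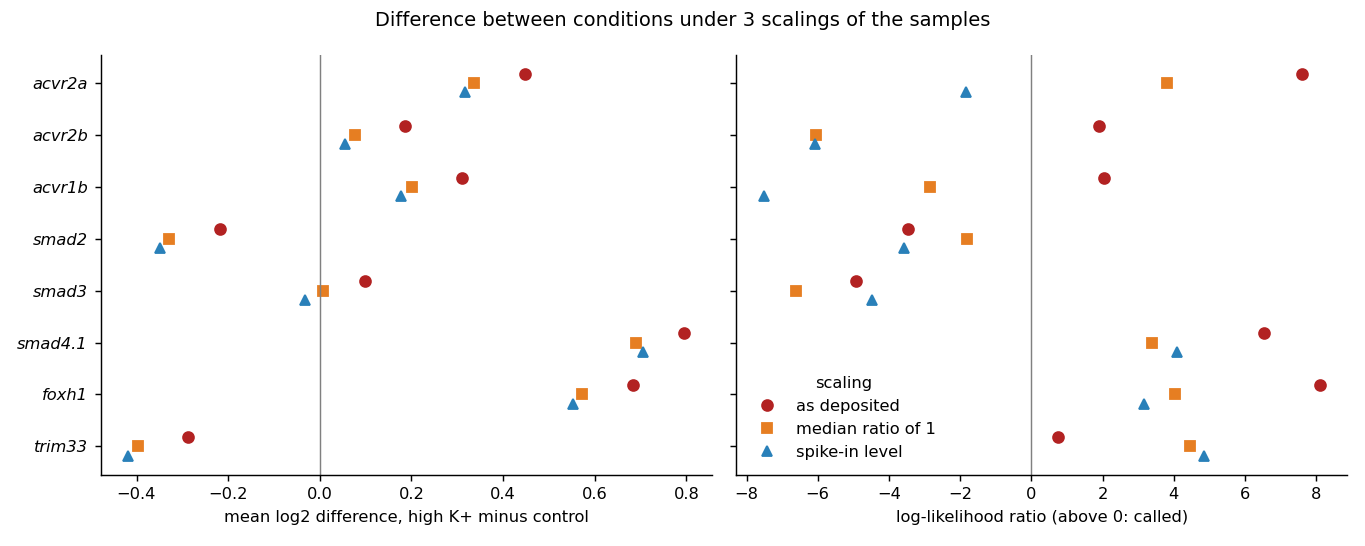
Left, mean log2 difference over 13 time points, high K+ minus control, with the values as deposited (circles), scaled to a median ratio of 1 (squares) and scaled to the spike-in RNAs (triangles). Right, the log-likelihood ratio of the Gaussian processes, where a value above 0 is a call. *foxh1*, *smad4.1* and *trim33* are right of 0 under all 3 scalings.

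Moving the control course along the time axis changed *foxh1* and *smad4.1* in opposite directions. Set against the control sample taken 30 min earlier, high K+ had a mean log2 difference of 0.33 for *foxh1* and 1.103 for *smad4.1*. Set against the control sample taken 30 min later, it had 1.04 for *foxh1* and 0.48 for *smad4.1*. Both genes were thus higher in high K+ under either shift, as was *acvr2a* with 0.30 and 0.63. *smad2* and *trim33* stayed lower under either shift, with -0.40 and -0.05 for *smad2* and -0.42 and -0.21 for *trim33*.

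Over all 26 samples the 3 receptor genes shared 1 pattern. The correlation of log2(abundance + 1) was 0.97 between *acvr1b* and *acvr2b*, and 0.94 between *acvr2a* and each of them. *smad3* had 0.95 to *acvr1b* and to *acvr2b*, and 0.90 to *acvr2a*. *smad4.1* ran against all the others, from -0.78 with *foxh1* to -0.33 with *acvr2a*. These are descriptions over samples that share their time points. From the first to the last window 60.7% of all tested genes fell in high K+ and 58.8% in control. Among 11176 tested genes with a symbol, those with the pattern most like *foxh1* were *dbf4b*, *irf2bpl* and *tti1*, each with a correlation of 0.99 over the 26 samples. For *smad4.1* they were *hunk*, *rbl1* and *gpr135*, with 0.99 each. The closest were *arhgap44* for *acvr2a*, *usp31* for *acvr2b*, *dpy19l4* for *acvr1b*, *zbtb21* for *smad2*, *ipmk* for *smad3* and *zc3h6* for *trim33*, with 0.98 to 0.99.

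Of 10 other tested receptor and coreceptor genes of the TGF-beta family, 1 was called higher (10.0%) and 0 lower. Over all tested genes 29.6% were called higher and 9.25% lower. The median of the mean log2 differences was -0.03 in this list and 0.08 over all tested genes. The called gene was *acvr1c*, which encodes another type I receptor for Nodal, with a mean abundance of 2.29 in high K+ and 1.54 in control. The coreceptor genes *tdgf1.1*, *tdgf1.2* and *tdgf1.3*, which encode EGF-CFC proteins that Nodal ligands need to bind their receptor complex, were not called, with mean log2 differences of -0.53, -0.51 and -0.21 (these 3 were chosen after their values were seen).

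Of 5 other tested Smad genes, 2 were called higher (40.0%), 1 lower and 2 were not called, where 29.6% of all tested genes were higher and 9.25% lower. *smad1*, which carries the BMP signal, averaged 448 in high K+ and 274 in control, a log2 difference of 0.64 ± 0.33 with a log-likelihood ratio of 14.7, and it was above control at 13 of 13 time points. *smad6*, an inhibitory Smad, had a log2 difference of 0.20 and a ratio of 0.83. *smad7*, the inhibitory Smad that acts on Nodal receptors, averaged 25.5 in high K+ and 34.8 in control, a log2 difference of -0.45 ± 0.36 with a ratio of 4.21, and was above control at 2 of 13 time points.

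Among 20 tested genes for Smad anchors, ubiquitin ligases and phosphatases, 7 were called higher (35.0%), 3 lower and 10 were not called. This is near the shares over all tested genes, 29.6% higher and 9.25% lower. The median of the mean log2 differences in this list was 0.10. The leading higher genes were *stub1* (log2 difference 0.41, ratio 17.6) and *nedd4l* (0.45, ratio 10.8), which encode ubiquitin ligases. The leading lower genes were *wwp1* (-0.42, ratio 3.27) and *wwp2* (-0.43, ratio 3.14), also ubiquitin ligases, each above control at 1 of 13 time points. Called genes of ubiquitin ligases that act on Smads or receptors therefore stood on both sides, as did called genes among all those tested.

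Of 26 tested nuclear partners of Smads, 12 were called higher (46.2%), 2 lower and 12 were not called. Over all tested genes 29.6% were called higher and 9.25% lower. The median of the mean log2 differences was 0.15 in this list and 0.08 over all tested genes. *drap1*, whose product restrains Foxh1 activity in the mouse, averaged 1413 in high K+ and 753 in control. Its log2 difference of 0.92 ± 0.36 was positive at 13 of 13 time points, with a ratio of 19.7. *tgif2*, a corepressor of Smad2, had a log2 difference of 0.57 and a ratio of 16.3. The genes called lower were *ski*, another Smad corepressor (-0.30, ratio 2.89), and *wwtr1*, a transcriptional coactivator (-0.08, ratio 0.31).

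Of 28 tested genes listed as targets of Nodal signaling in the frog gastrula, 8 were called higher, 0 lower and 20 were not called. The share called higher was 28.6%, close to the 29.6% of all tested genes. Their median was 0.25, against 0.08 over all tested genes, and 25 of the 28 (89.3%) had a mean log2 difference above 0, as did 58.9% of all tested genes. *chrd*, the BMP antagonist of the organizer, averaged 115 in high K+ and 66.1 in control, with a log2 difference of 0.90 ± 0.59 that was positive at 13 of 13 time points and a ratio of 10.3. *eomes*, a T-box factor of mesoderm and endoderm, averaged 126 in high K+ and 74.9 in control, with a log2 difference of 0.48 ± 0.57 and a ratio of 7.17. *lefty*, a feedback inhibitor of Nodal, had a ratio of 6.18, and the ligand genes *nodal1*, *nodal2*, *nodal5* and *nodal6* were not called, with mean log2 differences of 0.12 to 0.25. Another 2 genes are listed as *nodal*, and neither was called, with mean log2 differences of -0.33 and -0.02. *lefty* and the ligand genes were chosen for naming after their values were seen, and *mix1*, *mixer* and *eomes* are in this list and in that of nuclear partners.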

How the data were processed

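The study's authors aligned paired-end reads of polyA RNA with STAR to the Xt9.1 genome joined with the spike-in sequences, estimated TPM per isoform with RSEM, applied a correction for dinucleotide content learned from the spike-in RNAs of each condition on its own, and added up the isoforms of a gene. The signal values that the authors deposited are the result, for 34192 genes and 92 spike-in RNAs, not counts, and were used without further scaling. The filter on low values was applied to these corrected values. The paper filtered on uncorrected TPM and also dropped genes that its correction changed too strongly, which were not dropped here. Tool versions are not given in the sources used here. All 26 columns matched a sample by title.

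After the square root transform of the methods (alpha 1, beta 1000), a Matern Gaussian process with the published priors, hours as time unit and a mean of 0 was fitted to every gene, using Python 3.11.15, numba 0.67.0, pandas 2.3.3, scipy 1.17.1 and numpy 2.4.6. Windows were fitted with limma 3.58.1 in R 4.3.3. Both were tested on simulated data. Figures used matplotlib 3.10.9. The spike-in scaling used 43 spike-in rows above 10 in every sample. Replicate numbers in the labels are time points, so the 2 conditions are paired by time. Deviations from window means correlated between the samples of a time point at -0.20 to 0.56 over 12 pairs.

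The members and gene lists were chosen with earlier results of these data known. All 8 members are named. Of each other list, the 2 called genes of each direction with the largest ratio are named, and for likeness the 3 genes with the highest correlation were sought. Alternatives were other scalings, transforms, criteria, filters and pseudocounts, limma with and without block, shifts of 30 min and leaving out each time point. Some listed symbols were not matched and are not analysed here.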

Additional observations from a re-analysis of the deposited data

How the results depend on the processing

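No value that was called changed its direction under the alternatives run. Among the 8 genes, 5 called higher became 3 under the median ratio scaling, 2 under the spike-in scaling and 3 under the Bayesian information criterion. These 5 became 0 with limma without block over 13 time points and 3 to 5 when a time point was left out. With the time point as block they became 4, since *acvr2b* was not called (limma adjusted p = 0.196). The 1 called lower became 0 under the Bayesian information criterion, 0 with limma with or without the replicate block, and 0 to 1 when a time point was left out. With limma and the time point as block over the whole course, *foxh1* had an adjusted p of 0.000835 and *smad4.1* of 0.000335, against 0.771 and 0.698 without it. The fit without block has no term for time, so change along the course enters its error. For *foxh1* the SE was 0.685 without and 0.132 with the block. Over all tested genes, 4449 called higher became 2813 under the median ratio scaling, 1896 under the spike-in scaling, 2254 under the Bayesian information criterion, 612 with limma without block and 6902 without a filter. The 1389 called lower became 2572, 2414, 294, 133 and 4375 under those same alternatives, 2376 with the log2 transform and 2678 with the gene mean subtracted. With limma and the time point as block, 4052 of all 15019 tested genes were called higher and 1881 lower. In the windows, the 1 gene of the 8 called at 0.5 to 1.5 h became 4 with the replicate block, 3 with a pseudocount of 10, 0 under either scaling and 0 to 2 when a time point was left out. The 1 called at 2 to 3 h became 3 with the block, 2 with a pseudocount of 10, 0 under either scaling and 0 to 1 when a time point was left out. With the block, 16.6% of all tested genes were called higher in the earlier window and 21.1% in the later one. The shares for the other alternatives in the windows are not given here. The cause of these changes in the counts was not tested. Each condition is 1 course of 1 set of embryos and the depth is unknown, so neither the spread between clutches nor counting error enters any value.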
